A study of Notophthalmus viridescens with 12 samples.

Results

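Among 856451 assembled transcripts of the newt dorsal iris, 28 fell by more than 1.5 in mean log2 level at every interval after lens removal. The intervals ran from intact iris to 6 h, from 6 h to 1 day and from 1 day to 4 days. On the deposited values, without logs, the group means fell at all 3 steps in 22 of the 28. The 28 were chosen by their measured values. A transcript was kept where its mean in intact iris was 50 or more and where its mean of log2(value + 1) over the 3 libraries of a group dropped by more than 1.5 at each of the 3 steps. All 28 were kept, since the rule allowed up to 200. The values that chose them came from all 12 libraries, so their levels, steps and differences between time points are given as a description. Counts of members called at each step in the main fit, at an adjusted p below 0.05, are printed beside the same share over all transcripts. Counts at an unadjusted p, under other settings or without 1 library have no such share. Nothing about the members rests on any of these counts.

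The transcripts came from bulk RNA sequencing of dorsal irises of adult eastern newts (Notophthalmus viridescens) caught in the wild. The intact group had no surgery. The other groups had the lens surgically removed (lentectomy) under tricaine anaesthesia and were sampled 6 h after it (6 h post-lentectomy, hpl) or 1 or 4 days after it (1 and 4 days post-lentectomy, dpl). Each group held 3 biological replicates, and each replicate pooled the dorsal irises of both eyes of 3 or 4 animals, so the spread between animals within a pool was not seen. No transgene, allele or drug treatment was named for any group, and the labels gave neither sex nor an age beyond adult.

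Newts regrow a lens from the dorsal iris, whose pigment epithelial cells (iPECs) leave their differentiated state, shed their pigment, re-enter the cell cycle and turn into lens cells. An intact iris holds differentiated pigment epithelium, stroma, muscle, vessels and nerve fibres, and surgery adds a wound response with immune cells that enter the eye. Genes that serve the differentiated iris can be shut down as iPECs dedifferentiate, and messenger RNAs that are no longer made decline at a pace set by their stability. The table named transcripts by ID only and 0 of the 28 could be matched to a gene name, so no role can be given for any of them. The identity of the tissue could not be checked against its markers for the same reason. Isoforms and fragments of 1 gene can carry separate IDs and divide its reads, so 28 transcripts need not be 28 genes.

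Values are the normalised abundance of each transcript as deposited. They summed to between 27737613 and 40770545 per library, and the median transcript lay between 7.94 and 8.54 in every library. The reads behind each value could not be recovered, so the precision that read number set for each transcript is unknown. A transcript listed at 0 may have been present at a level too low to be measured, so a 0 does not show that it was missing.

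The median of the 28 transcripts was 274, 352 and 385 in the 3 intact libraries. At 6 hpl it was 180 in replicate 1, 41.5 in replicate 2 and 47.4 in replicate 3. By 1 dpl it had come down to 7.83, 10.9 and 10.9, and by 4 dpl to 0.909, 0.869 and 0.667. The medians of the 4 groups thus did not overlap, and the widest gap within a group lay between replicate 1 and the other libraries at 6 hpl. Because each library is a bulk sample, fewer cells of a type and less RNA per cell cannot be told apart in these falls.

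**Figure D1:**
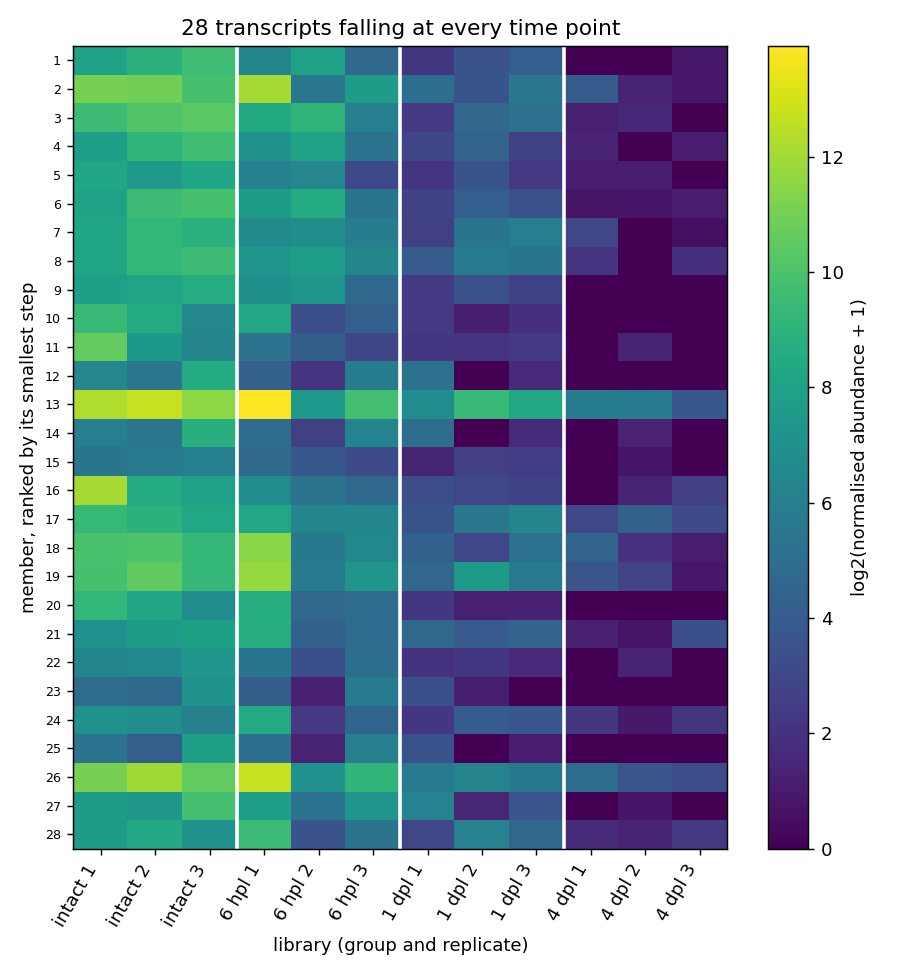
Normalised abundance of the 28 transcripts, as log2(value + 1), in each of the 12 libraries. Each line is 1 transcript, ordered from the largest smallest step at the top to the smallest at the bottom, and white lines part the groups of 3 libraries. The colours darken from intact to 4 dpl in every transcript, while replicate 1 at 6 hpl stays as bright as intact iris in 8 of them.

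In intact iris the 28 transcripts covered a wide range of levels, with group means from 53.4 to 4932 and a median of 437. The floor of 50 on the intact mean removed none: the same 28 transcripts met the 3 steps without it. The median of the group means was 134 at 6 hpl, 10.9 at 1 dpl and 0.864 at 4 dpl. By 4 dpl the group means ran from 0 to 41.5, so the most abundant member was still measured in all 3 libraries while others were listed at 0. At this last time point 6 of the 28 were listed at 0 in all 3 libraries, 6 in 2 libraries, 6 in 1 library and 10 in none. None was at 0 in any intact or 6 hpl library.

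The fall from intact to 4 dpl lay between 4.87 and 9.09 on the log2(value + 1) scale, with a median of 7.34. This scale understates the fall of transcripts that end near 0, and no fold change was formed against a group at 0. The first step, from intact to 6 hpl, had a median fall of 1.93 (range 1.53 to 3.98). A median of 2.56 was lost between 6 hpl and 1 dpl (range 1.51 to 4.49). The last step, from 1 dpl to 4 dpl, brought a further median fall of 2.12 (range 1.53 to 3.71). The middle step was the largest of the 3 in 16 transcripts, the last step in 8 and the first step in 4. Many 4 dpl values were listed at 0, so this order depends on the 1 added before the logs. It was not formed with another value added.

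The intervals differed in length, so equal steps are not equal rates. The first step took 6 h, the second 18 h and the third 72 h, and the median fall per hour was 0.321, 0.142 and 0.0294 log2 units in that order. This order followed from the rule, which asked for the same 1.5 in intervals of growing length, and is no finding about the members. A floor of 0 bounds the last step, since transcripts near 0 at 1 dpl have little left to lose on this scale. The first step took a median of 27.6% of the whole fall (range 19.1% to 52.1%), the second 37.0% (24.2% to 55.6%) and the third 31.5% (19.5% to 48.6%). These shares depend on the 1 added before the logs, and no other value was tried for them.

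**Figure D2:**
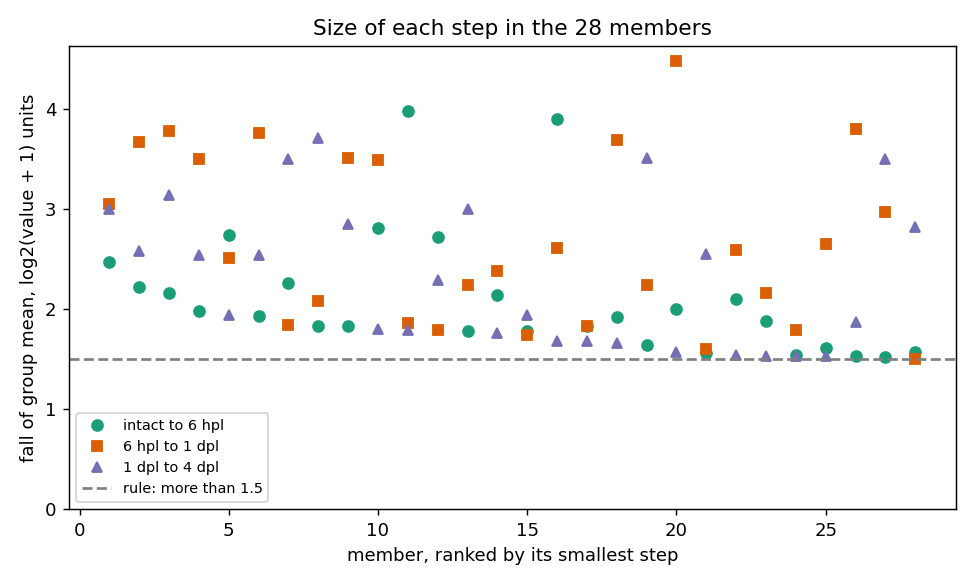
Fall of the group mean at each of the 3 steps, in log2(value + 1) units, for the 28 transcripts ordered by their smallest step. The dashed line marks the 1.5 units that the rule required, and the squares for the step from 6 hpl to 1 dpl lie highest in 16 transcripts.

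The transcripts that fell strongly by 4 dpl were sorted by the steps at which they did so. Of the 62410 transcripts with an intact mean of 50 or more, 1349 fell by more than 4.5 log2 units in all, the total that 3 steps of 1.5 add up to. Of these, 28 (2.08%) passed 1.5 at each step. The number meeting the rule depended on its settings: it was 150 with a pseudocount of 0.1, 7 with a pseudocount of 5, 124 with steps above 1, 3 with steps above 2 and 15 without 6 hpl replicate 3. Most others passed it within the first day only: 719 (53.3%) passed 1.5 at both of the first 2 steps but not at the last, and 324 (24.0%) passed it at the first step alone. A further 122 (9.04%) did not pass 1.5 at the first step but passed it at both later steps, 48 (3.56%) passed it at the first and last, 62 (4.60%) at the last alone and 46 (3.41%) at the middle alone. A transcript with a mean log2(value + 1) of 1.5 or less at 1 dpl could not pass at the last step. Only 524 of the 1349 had 3 different values at 1 dpl, and libraries listed at 0 count as equal. How many lay too low to pass was not counted, so the 2.08% is not read as a rare shape. The mirror rule, a 4 dpl mean of 50 or more with a rise of more than 1.5 at each step, was met by 32 transcripts.

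The 28 lie at the edge of a continuous range and are not set apart by a gap. The members closest to the threshold had smallest steps of 1.51 and 1.53, and the transcripts just outside had 1.49 and 1.49. The member with 1.51 was at 197, 337 and 130 before surgery, then 712, 10.7 and 38.5 at 6 hpl, then 6.77, 71.4 and 24.5 at 1 dpl, and it ended at 2.17, 1.62 and 3.89. Its first 6 hpl library lay above all intact libraries. The nearest transcript outside, with 1.49, was at 72.1, 91.3 and 117 before surgery, then 37.9, 2.49 and 7.72 at 6 hpl, then 0, 2.73 and 10.3 at 1 dpl, and it ended at 0.889, 0 and 0. That transcript kept its 6 hpl libraries below all intact libraries, but its libraries overlapped at both later steps. The member with 1.51 overlapped at both earlier steps and not at the last. The threshold thus did not part these transcripts by how cleanly their libraries separate. In all, 9 transcripts had a smallest step between 1.5 and 1.6, 9 between 1.4 and 1.5, and 18 between 1.3 and 1.4.

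Transcript 1_3593846 had the largest smallest step of all, 2.48, and ranked 10th of the 28 by mean log2 level in intact iris. It measured 259, 495 and 769 in the intact libraries, a mean of 508 ± 255 (SD, n = 3). At 6 hpl it was at 83.6, 250.9 and 26.1 (120 ± 117, SD, n = 3). Each 6 hpl library lay below each intact library, although replicate 2 at 6 hpl came within reach of the lowest intact value. Levels of 3.86, 10.7 and 16.6 followed at 1 dpl (10.4 ± 6.39, SD, n = 3). At 4 dpl it was listed at 0, 0 and 0.939 (0.313 ± 0.542, SD, n = 3). All 12 libraries kept the order of the groups, with no overlap at any step. The fall of 8.54 was divided almost evenly on the log2(value + 1) scale, into 2.48, 3.06 and 3.00. Its 4 dpl values lay near 0, so the last step depends on the 1 added before the logs. With 0.1 added, the difference from intact to 4 dpl was -11.05. The limma fit across all transcripts tested gave each step a standard error of 0.64, pooled over the 4 groups. Its log2 SD was 1.61 at 6 hpl and 0.79 in intact iris. The shared error thus understates the spread around the steps that involve 6 hpl.

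The highest of the 28 in intact iris was transcript 4_29660789, ranked 13th by its smallest step. Its intact libraries were at 4829, 6934 and 3032, a mean of 4932 ± 1953 (SD, n = 3). The 6 hpl libraries were at 15534, 180.0 and 882 (5532 ± 8669, SD, n = 3). Replicate 1 at 6 hpl was thus the highest of all 12 libraries, while replicates 2 and 3 were lower than every intact library. It measured 109.6, 678 and 308 at 1 dpl (365 ± 289, SD, n = 3). By 4 dpl it was at 57.1, 54.6 and 12.9 (41.5 ± 24.8, SD, n = 3). The 1 dpl libraries overlapped those at 6 hpl, and the 4 dpl libraries lay below all 1 dpl libraries. Its steps on the log2 scale were 1.79, 2.25 and 3.01, and its mean of the deposited values did not fall at the first step. The limma fit gave each step a standard error of 1.01, pooled over the 4 groups. Its log2 SD was 3.26 at 6 hpl and 0.60 in intact iris. The shared error thus understates the spread around the steps that involve 6 hpl.

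**Figure D3:**
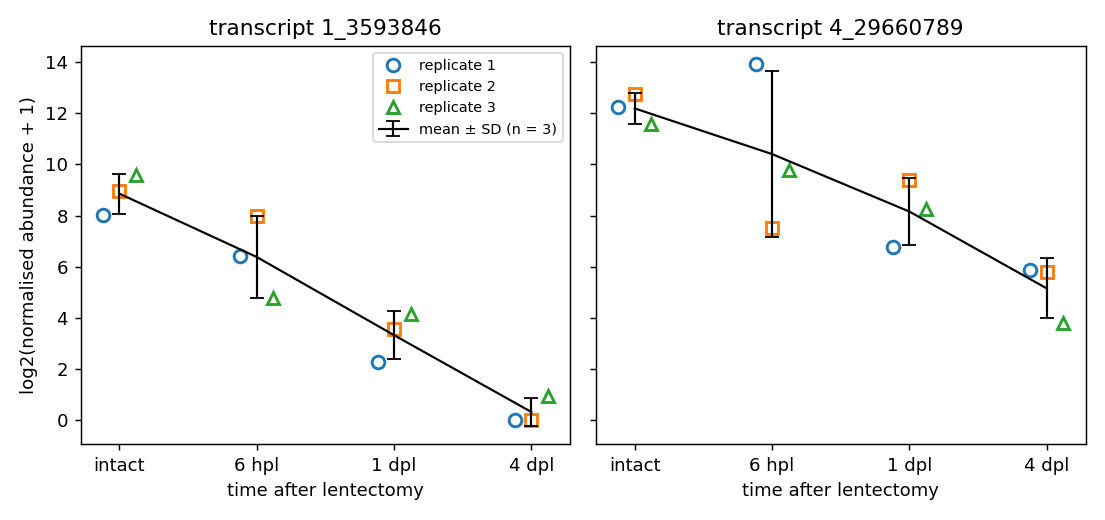
Level of transcripts 1_3593846 (left) and 4_29660789 (right) as log2(normalised abundance + 1), with 1 point per library and the line and bars giving the mean ± SD of 3 libraries. On this scale the left transcript declined in nearly even steps, whereas the right one had 6 hpl libraries spread from 180.0 to 15534.

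These 2 transcripts did not vary alike from library to library. The correlation of their deviations from the group means was -0.22 over the 12 libraries. One other member had a correlation over 0.9 with 1_3593846 and 2 others with 4_29660789, given as a description since the members share libraries.

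Separation of the libraries varied among the 28 and between steps. At the first step 10 of the 28 had every 6 hpl library below every intact library, against 10.3% of all 855254 transcripts tested (those at 1 or more in at least 3 libraries, which all 28 were) and 13.1% of those with an intact mean of 50 or more. From 6 hpl to 1 dpl, 14 showed no overlap, against 10.6% of all transcripts tested and 13.1% of those with that intact mean. The 4 dpl libraries lay below all 1 dpl libraries in 19 transcripts, against 6.54% of all and 5.73% of those with that intact mean. Across the whole course, all 28 had every 4 dpl library below every intact library, against 11.7% of all and 21.7% of those with that intact mean. The rule used each of these contrasts, so the counts describe the members and nothing is read from their excess over the background.

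Clean order at all 3 steps was found in 8 of the 28, against 0.00748% of all transcripts tested and 0.0401% of those with an intact mean of 50 or more. A further 6 were free of overlap at 2 steps, 7 at 1 step and 7 at none, for which no share over all transcripts was formed. The 8 in clean order ranked 1, 3, 8, 9, 11, 15, 16 and 22 by their smallest step, so they did not all have large steps. The third-ranked transcript was at 755, 1137 and 1300 before surgery, declined to 349, 557 and 62.8 at 6 hpl, to 4.15, 23.0 and 37.3 at 1 dpl, and lastly to 1.35, 1.93 and 0. The 16th started from uneven intact libraries, at 4169, 382 and 248, and went through 107.6, 39.3 and 26.0 at 6 hpl and 8.89, 6.82 and 5.69 at 1 dpl to 0, 1.49 and 5.20 at 4 dpl. Its large first step of 3.91 rested partly on the first intact library, which stood more than 10-fold above the others. The member with the lowest intact mean of the deposited values, ranked 15th, ran from 41.9, 54.6 and 63.6 through 27.4, 13.4 and 8.19 and then 1.71, 5.18 and 4.96 to 0, 0.759 and 0. Its libraries kept their order although the highest was about 3 times the lowest at 6 hpl and at 1 dpl.

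The size of each step against the spread between pools was described with a fit across all transcripts. In a limma fit over all 12 libraries, with a Benjamini-Hochberg adjusted p below 0.05 taken over all transcripts tested, 5 of the 28 were called lower at 6 hpl than in intact iris, against 0.717% of all transcripts tested and 3.09% of those with an intact mean of 50 or more. The step from 6 hpl to 1 dpl was called in 8 (0.324% of all, 1.08% with that intact mean) and that from 1 dpl to 4 dpl in 5 (0.21% of all, 0.55% with that intact mean). Successive steps share the group between them and so are not independent of each other. The whole fall from intact to 4 dpl was called in all 28 (2.37% of all, 8.14% with that intact mean), which a required total fall above 4.5 made likely. At an unadjusted p below 0.05 in the same fit, the 3 steps counted 17, 24 and 21 of the 28. No share over all transcripts was formed at that threshold. The adjusted counts thus depend on the adjustment over 855254 transcripts as well as on the spread between pools. The rule used these contrasts, and nothing is read from the counts about the members.

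At the adjusted threshold 1 of the 28 transcripts was called at all 3 steps, 3 at 2 steps, 9 at 1 step and 15 at none. Over all 855254 transcripts tested, 102 were called lower at 2 steps, 10495 at 1 step and 844656 at none. The 1 called at every step was 1_3593846, and it was also the only one of the 855254 transcripts tested that was called lower at all 3. It was named for the largest smallest step on the same values, so this is a description. With a pseudocount of 0.1, without intact replicate 1 or without 6 hpl replicate 3, no member was called at the first step, 1_3593846 included. Standard errors of the 28, each pooled over the 4 groups, ran from 0.52 to 1.06 log2 units with a median of 0.80. At the median a step of 1.5 was thus less than 2 standard errors. The counts moved with single libraries. Without 6 hpl replicate 1 the first step was called in 15 transcripts, without 6 hpl replicate 3 or without intact replicate 1 in 0 (15 with an unadjusted p below 0.05 in either case), without intact replicate 2 in 2 and without intact replicate 3 in 3. The second step was called in 2 without 6 hpl replicate 1, in 5 without 1 dpl replicate 2 and in 3 without 1 dpl replicate 3. The third was called in 9 without 6 hpl replicate 1, in 2 without 1 dpl replicate 2 or 3, in 3 without 4 dpl replicate 1 and in 1 without 4 dpl replicate 2 or 3.

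The 3 libraries at 6 hpl disagreed for many of the 28. Their SD on the log2 scale had a median of 1.84, compared with 0.69 in intact iris, 0.97 at 1 dpl and 0.72 at 4 dpl. Over the 62410 transcripts with an intact mean of 50 or more, the median SD at 6 hpl was 0.28, the lowest of the 4 groups, and over the 1349 that fell by more than 4.5 it was 1.05. The ratio of the highest to the lowest 6 hpl library had a median of 13.1 in the 28 (range 2.02 to 97.9) and was above 10 in 15 of them. The same ratio had a median of 2.54 in intact iris. At the median of these 28 transcripts, pools thus differed more at 6 hpl than within any other group. The same values chose the 28, and the rule can admit transcripts whose 6 hpl libraries split into high and low. Many 4 dpl values were listed at 0, which bounds the SD there on this scale. The comparison is therefore a description only.

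Replicate 1 at 6 hpl was the usual high library. It was the highest 6 hpl library in 16 of the 28 (57.1%) and the lowest in 0. The same library was the highest in 24.6% of the transcripts with an intact mean of 50 or more and in 82.0% of 1308 that fell by more than 4.5 in all and had no tied values at 6 hpl. The 1349 strong fallers leaned on a single pool before surgery too: intact replicate 1 was their highest intact library in 76.1%, against 7 of the 28, and their median intact SD was 2.18. Replicate 2 was the lowest of the 3 in 17 of the 28 and the highest in 8, and replicate 3 was the lowest in 11 and the highest in 4.

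For 8 transcripts, replicate 1 at 6 hpl exceeded every intact library. No other library taken after lentectomy did so in any of the 28. Those other libraries did so in 17.2% to 34.4% of the transcripts with an intact mean of 50 or more. Among the 1349 that fell by more than 4.5 in all, they did so in 0% to 3.93%. The rule on the group means worked against such values, so their absence is not read as a trait of the 28. In these 8 it stood 1.70 to 2.78 times above the highest intact library (median 2.18) and 12.8 to 31.0 times above the next 6 hpl library (median 18.1), and replicate 2 was the lowest 6 hpl library in all 8. The 8 were 28.6% of the 28, and replicate 1 exceeded every intact library in 23.9% of the transcripts with an intact mean of 50 or more and in 11.8% of the 1349 that fell by more than 4.5 in all. The 8 had medians of 954, 1288 and 616 in the intact libraries, then 3055, 45.7 and 122 at 6 hpl, then 24.1, 43.4 and 40.1 at 1 dpl, and lastly 13.9, 2.29 and 3.70. At these medians 2 of the 3 pools sampled at 6 hpl and all 3 sampled at 1 dpl lay below the intact libraries. Each time point had its own pools, so no pool was followed over time. Replicate 1 at 6 hpl set the 8 apart, so its contrast with the other 20 follows from the split. The 28.6% lies near the 23.9% and is not read as a trait of the members. The other 20 transcripts had medians of 259, 282 and 347 in intact iris, then 104.4, 37.8 and 40.2 at 6 hpl, then 5.34, 6.00 and 5.22 at 1 dpl, and lastly 0, 0.379 and 0, a fall seen in every 6 hpl library at the median.

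**Figure D4:**
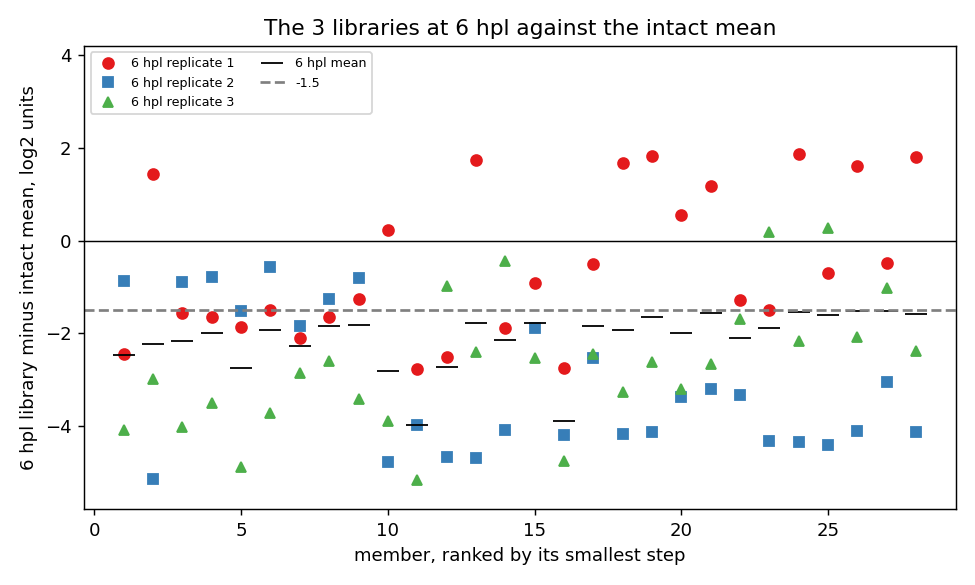
Each 6 hpl library minus the mean of the intact libraries, in log2(value + 1) units, for the 28 transcripts ordered by their smallest step. Black bars give the 6 hpl mean and the dashed line the 1.5 units that the rule required. Circles for replicate 1 lie above 0 in 10 transcripts, while squares for replicate 2 lie below 0 in all 28.

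On the scale of the deposited values, without logs, the group means fell at all 3 steps in 22 of the 28. In the other 6 the mean at 6 hpl was above the intact mean, with replicate 1 the highest library, and all 28 fell at the 2 later steps. Taken library by library, 6 hpl replicate 1 lay more than 1.5 below the intact log2 mean in 11 of the 28 and not below it in 10. Replicate 2 met that distance in 22 and replicate 3 in 23, with 0 and 2 transcripts not below the intact mean. The later steps were more even, with 20 to 23 transcripts per library more than 1.5 below the 6 hpl mean at 1 dpl and 23 to 25 more than 1.5 below the 1 dpl mean at 4 dpl. The rule asked the mean of the same 3 libraries to fall by more than 1.5, so high counts were built in. No share over all transcripts was formed, and the counts only describe the libraries. A single transcript, ranked 5th, met the distance in all 9 libraries taken after lentectomy. It measured 291, 179 and 293 before surgery, then 67.7, 86.4 and 7.47 at 6 hpl, then 3.45, 11.3 and 3.96 at 1 dpl, and lastly 1.14, 1.23 and 0.

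Some members had the same high libraries. In 5 transcripts the highest libraries were intact replicate 3, 6 hpl replicate 2 and 1 dpl replicate 2. In 4 others they were intact replicate 2, 6 hpl replicate 1 and 1 dpl replicate 2, and these 4 included 4_29660789. In 4 more they were intact replicate 3, 6 hpl replicate 3 and 1 dpl replicate 1. Over 12 libraries, the deviations from the group means had correlations of 0.34 to 0.94 in the set of 5 (median 0.77), 0.86 to 0.98 in the first set of 4 (median 0.91) and 0.86 to 0.97 in the other set of 4 (median 0.93). The sets of 3 transcripts that shared their highest libraries had correlations of 0.61 to 0.98 and of 0.32 to 0.53. Over all 378 pairs of the 28 the median was 0.18, with values from -0.74 to 0.98, so the 28 did not vary as 1 block. These sets were formed from the same values, and transcripts of 1 gene would also vary together, which could not be checked without names.

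The second set of 4 showed what this looks like in single libraries. Its first member, ranked 12th, was at 84.8, 42.5 and 372 before surgery, then 18.5, 3.41 and 55.7 at 6 hpl, then 36.8, 0 and 2.11 at 1 dpl, with 0 listed in all libraries at 4 dpl. The next, ranked 14th, was at 62.1, 42.7 and 437, then 27.9, 5.23 and 76.9, then 30.4, 0 and 2.17, and at 4 dpl 0, 1.57 and 0. Both were highest in the third intact and 6 hpl libraries and in the first 1 dpl library, and their 1 dpl libraries overlapped those at 6 hpl.

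The IDs begin with a digit from 1 to 9, the meaning of which is not explained in the labels or the methods. Of the 28 transcripts, 13 (46.4%) began with 1 or 2, against 25.5% of all transcripts and 30.1% of those with an intact mean of 50 or more. The 1349 with a total fall above 4.5 had 63.2% there. Digits 3 and 4 held 11 (39.3%, against 30.4% of all transcripts and 26.8% of those with that intact mean). Digits 5 and 6 held 3 (10.7%, against 22.6% and 21.0%), and 7 and 8 held 1 (3.57%, against 20.8% and 19.6%). Taken singly, digit 1 held 3 (10.7%, against 12.8% and 15.0%) and digit 2 held 10 (35.7%, against 12.7% and 15.1%). The 1349 had 27.5% in digits 3 and 4, 5.19% in 5 and 6, and 4.00% in 7 and 8. Singly they had 32.5% in digit 1 and 30.8% in digit 2. The high share of digit 2 and the low shares of digits 5 to 8 are thus not particular to the 28. One pair of the 28 had ID numbers that differed by 1. The upper of the pair, ranked 9th, was at 229, 275 and 399 before surgery, then 122, 166 and 26.4 at 6 hpl, then 4.07, 10.1 and 5.66 at 1 dpl, with 0 listed in all 4 dpl libraries. The lower, ranked 27th, was at 197, 167 and 893, then 220, 36.2 and 151, then 70.5, 1.79 and 11.8, and at 4 dpl 0, 0.764 and 0. Their libraries did not move together (r = -0.36 over 12 libraries), and whether they belong to 1 gene is not known.

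When the rule was applied to 11 libraries, between 15 and 39 transcripts met it, and 12 to 26 of the 28 were among them. The omitted library then gave a value that had played no part in the choice. Without 6 hpl replicate 1, 32 transcripts met the rule, and the omitted library lay between the means of the neighbouring groups in 17 of them (53.1%) and not below the intact mean in 15. Without 6 hpl replicate 2 the numbers were 13 of 19, and without 6 hpl replicate 3 they were 13 of 15. At 1 dpl, 19 of 24, 23 of 32 and 25 of 29 omitted values lay between the neighbouring means for replicates 1, 2 and 3. Omitted intact libraries lay above the 6 hpl mean in 29 of 39, 25 of 26 and 25 of 25. Omitted 4 dpl libraries lay below the 1 dpl mean in 26 of 28, 28 of 30 and 30 of 33. Omitted intact and 4 dpl values were set against 1 neighbouring mean only, and the libraries left in their groups had chosen the transcripts. No share over all transcripts was formed, so nothing is read from the high counts. Among the 6 hpl and 1 dpl libraries, which were set between 2 means, replicate 1 at 6 hpl lay between them least often.

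**Figure D5:**
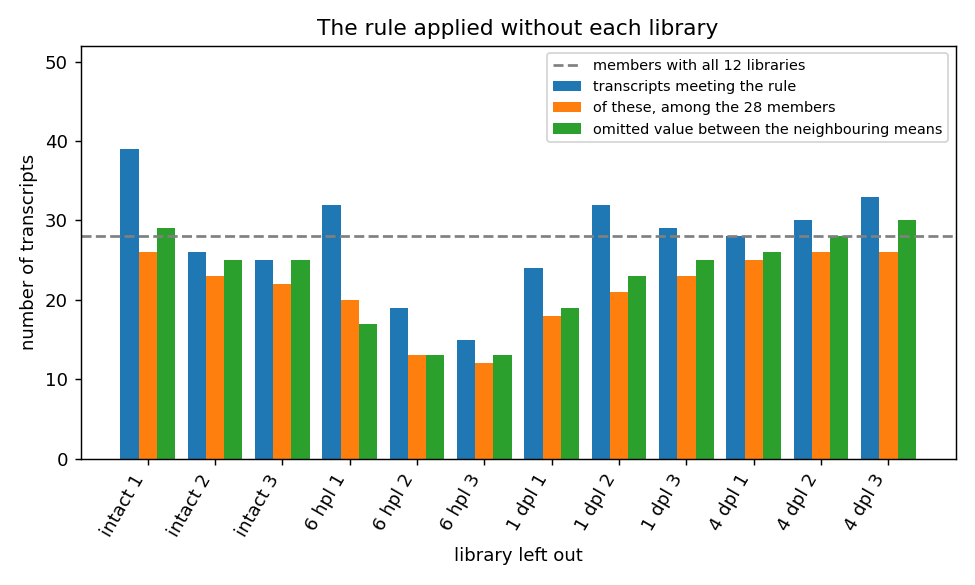
The rule applied without each of the 12 libraries in turn. Bars give the number of transcripts that then met the rule, the number of these among the 28, and the number whose omitted value lay between the means of the neighbouring groups, and the dashed line marks 28. The count of the 28 found again was lowest, at 12, without 6 hpl replicate 3 and highest, at 26, without intact replicate 1 or 4 dpl replicate 2 or 3.

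Single transcripts differed in how far they hung on 1 library. The transcripts ranked 1st and 10th met the rule in all 12 omissions, 10 others in 11 of them, 15 in 6 to 10, and the one ranked 24th in only 3. That last transcript was at 133, 115 and 67.2 before surgery, then 369, 4.03 and 21.8 at 6 hpl, then 3.52, 15.4 and 12.9 at 1 dpl, and lastly 3.85, 0.937 and 3.51. The 10th-ranked transcript, by contrast, was at 663, 367 and 84.9, then 324, 9.09 and 17.4, then 3.96, 1.23 and 2.84, and was listed at 0 in all 4 dpl libraries. Its intact and 6 hpl libraries overlapped, and yet no single library decided its place among the 28.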

How the data were processed

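Per the labels, RNA was depleted of abundant transcripts before sequencing. The authors trimmed reads with Trim Galore, removed ribosomal reads with Bowtie2 against Silva, assembled transcripts with Trinity, merged assemblies with DRAP and quantified them with Salmon (tool versions: not given in the sources used here). Deposited by the authors was a normalised abundance signal per transcript, averaged over inferential replicates and called TPM. It did not sum to 1000000 per library, so the unit differed from the TPM assumed. The study tested differences with Swish on inferential replicates, which were not used here. In place of it, log2(value + 1) was fitted with limma 3.58.1 in R 4.3.3 (4 groups, variance trend, two-sided, Benjamini-Hochberg) over the 855254 transcripts that reached 1 in 3 or more of the 12 libraries, leaving out 1197. Groups came from the labelled time points, without any batch or date given. The 2 transcripts named by ID were the one with the largest smallest step and the one with the highest mean log2 level in intact iris; others are given by rank. Members and lists were chosen with earlier results of these data known. Lists of pigment, muscle, lens, nerve, blood, macrophage and vessel genes were not run, because 0 IDs matched a name. Python 3.11.15 applied the rule. Other pseudocounts, thresholds, scalings, filters, fits and omitted libraries were tried.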

Additional observations from a re-analysis of the deposited data

How the results depend on the processing

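The number of transcripts meeting the rule moved most with the pseudocount and the threshold. It was 150 with a pseudocount of 0.1 (the 28 among them), 7 with a pseudocount of 5, 124 with steps above 1 and 3 with steps above 2. It lay between 22 and 36 with other floors on the intact mean, summaries of the replicates and scalings, although only 13 of the 28 were found again with the log2 of the group mean or with the group median. Leaving out 1 library gave 15 to 39. With the scalings, the median difference of all transcripts from intact to 4 dpl reached -0.30 log2 units (as deposited -0.03), while the median of the 28 went from -7.34 to -7.61. The calls of 5, 8 and 5 of the 28 at the 3 steps in turn moved under several settings. The first was 0 with a pseudocount of 0.1 (12 at an unadjusted p below 0.05), 2 without a variance trend, 11 with array weights and 0 to 15 without 1 library. The second was 3 with a pseudocount of 0.1, 4 without a variance trend, 0 when only the 2 groups were fitted (19 at an unadjusted p below 0.05) and 2 to 7 without 1 library. The third was 2 without a variance trend, 1 when only the 2 groups were fitted, 3 with array weights and 1 to 9 without 1 library. The causes were not tested. The call from intact to 4 dpl held for 28 of 28 under every setting run. The difference of 1_3593846 from intact to 4 dpl, -8.54, was -11.05 with a pseudocount of 0.1 and -6.47 with 5, and -8.95 to -8.17 without 1 library. That of 4_29660789, -7.04, was -7.39 to -6.36 without 1 library. Clean order at all 3 steps, 8 of the 28 with all libraries, was counted in 8 to 11 of them without 1 library, which leaves fewer libraries that could overlap. No share over all transcripts was formed without 1 library.

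Replicate numbers were shared across groups, and no label paired the samples by them. Deviations of same-numbered libraries had correlations of -0.186 to 0.0542 (median 0.0181). Libraries with different numbers had -0.0971 to 0.221 (median -0.00531). Whether same-numbered pools shared a batch or date was not tested. A replicate block called 4, 9 and 6 of the 28 at the 3 steps and 28 from intact to 4 dpl. There were 3 pools per group and no read counts per transcript. At the median standard error of the 28, 0.80 log2 units, a single step of 1.5 was less than 2 standard errors and so not well resolved.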
